A study of Danio rerio with 12 samples.

Results

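Dusp6 mutant and WT zebrafish hearts were compared across 2 injury states, uninjured and 3 days post-amputation (dpa) of the ventricle, to describe the transcripts whose level differed by genotype in both states. The 4 libraries of this comparison, of 12 samples in the series, all came from experiment 1 and were chosen by their labels. They were a WT uninjured, a dusp6 mutant uninjured, a WT 3 dpa and a dusp6 mutant 3 dpa library, with 1 library per genotype and state. WT fish were of the AB* strain and mutants were homozygous for the pt30a allele (dusp6 pt30a/pt30a). All fish were adults, with an age recorded as "6-1year" in the sources used here. Ventricles were taken, and each library was made from a pool of hearts, so that differences between single hearts were not measured. The p-values cover the spread between these libraries alone. In the test of the 4 libraries, that spread is the change of the genotype difference between states (1 residual degree of freedom). It is joined to a prior from all genes (3.87 degrees of freedom). It holds no spread between libraries of the same genotype and state. The mutants carried the allele in every cell, and whether both genotypes shared parents is not given in the sources used here. WT hearts at 3 dpa from experiments 2 to 4 (3 libraries) and foxm1 mutant hearts at 3 dpa of the same experiments (3 libraries; foxm1 sa10708/sa10708, and labels with sa10709 and sa10710 as the second allele) have no dusp6 allele in their labels and were used only beside these 4. Hearts at 7 dpa were not analysed here.

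Dusp6 is a phosphatase that removes phosphate from the kinase ERK, and its own transcription is switched on by ERK signaling, so it acts as a feedback inhibitor of growth factor pathways such as FGF. In zebrafish, the ventricle regrows after amputation through division of existing cardiomyocytes, while the epicardium, endothelium, fibroblasts and immune cells respond around the wound. ERK activity in turn drives transcription of a set of feedback genes, which includes the Sprouty, Spred, Etv and Dusp families.

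The 4 libraries held 67236702 (WT uninjured), 64411062 (dusp6 mutant uninjured), 54229254 (WT 3 dpa) and 55529362 (dusp6 mutant 3 dpa) reads in genes, and the 6 libraries of experiments 2 to 4 held 17654534 to 21245883. After TMM normalization, each level is a count per 1000000 reads (CPM). Cardiomyocyte markers were abundant in all 4 libraries. Their summed level (myl7, cmlc1 and tnnt2a) was 36481 CPM in WT and 37323 CPM in dusp6 mutant uninjured hearts, but 11268 CPM in WT and 22296 CPM in dusp6 mutant hearts at 3 dpa. The fibroblast markers (col1a1a, col1a2 and dcn) summed to 345 and 442 CPM uninjured, and to 6935 CPM in WT against 2504 CPM in dusp6 mutant hearts at 3 dpa. The atrial myosin gene myh6 was at 93.2 and 51.2 CPM uninjured and at 1368 and 551 CPM at 3 dpa, WT first. The pair of libraries at 3 dpa therefore differed in the balance of muscle and wound tissue transcripts, while the uninjured pair was closer in the cardiomyocyte and fibroblast markers. In pooled tissue, fewer cells of a type and less RNA per cell cannot be told apart.

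The transcript of the mutated gene itself was not lower in mutants. dusp6 (ENSDARG00000070914, GRCz11 chromosome 25, 18326298 to 18330503, minus strand) was at 93.8 CPM in WT and 201 CPM in dusp6 mutant uninjured hearts, and at 235 CPM in WT and 338 CPM in dusp6 mutant hearts at 3 dpa. The mutant library was the higher of each pair, but the levels of the genotypes overlapped across states. The log2 fold change was 0.81 ± 0.30 (SE), with an adjusted p of 0.62 in edgeR's quasi-likelihood test. The 3 other WT libraries at 3 dpa held 242 to 409 CPM on the scale of all 10 libraries, where the dusp6 mutant library at 3 dpa had 362 CPM. The tables give reads per gene, so a lesion within the transcript could not be checked in them.

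Across injury states, no gene passed the threshold. Of 25281 genes in the tables, 20408 were tested with genotype and injury state as terms, and 0 genes were called higher (0%) and 0 lower (0%) by edgeR's quasi-likelihood test with 0.05 as the limit of the adjusted p and 0.59 as the smallest size of the log2 fold change. The lowest adjusted p was 0.116. At an unadjusted p under 0.05, 799 genes were higher (3.92%) and 810 were lower (3.97%) in dusp6 mutant hearts. DESeq2 called 150 genes higher and 143 lower from the same libraries. A quasi-likelihood fit was also made over all 10 libraries, in which the other 6 add to the estimate of the spread but not to the mutant level. The WT libraries of experiments 2 to 4 had a level of their own in it, as did the foxm1 mutants. A gap between experiment 1 and these libraries was therefore not counted as spread. The residual degrees of freedom were 5, against 1 with the 4 libraries. The spread thus came largely from replicates within experiments 2 to 4. These experiments were not told apart, although each holds a WT and a foxm1 mutant library. The 10-library fit called 52 higher (0.271%) and 90 lower (0.469%) of 19202 genes. Of those calls, 138 genes were also tested in the 4 libraries. All 138 differed at least 1.5-fold in the same direction in both states, against 8.99% of all genes tested. That fit takes its genotype difference from these same 4 libraries, so such agreement was largely set in advance. The counts of that fit rested on single libraries, and without the WT or the dusp6 mutant uninjured library it called 579 genes higher, with 536 and 540 lower.

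Genes that differed in both states were therefore described by size. In dusp6 mutant hearts, 903 genes (4.42% of those tested) were at least 1.5-fold higher than in WT both uninjured and at 3 dpa, and 932 (4.57%) were at least 1.5-fold lower in both. These 1835 genes (8.99%) compare with 918 (4.50%) that differed as much in opposite directions. In uninjured hearts alone, 2354 genes (11.5%) were at least 1.5-fold higher and 2220 (10.9%) lower. At 3 dpa the counts were 4137 (20.3%) and 4125 (20.2%). The genotype differences of the 2 states had a correlation of 0.26 across the 20408 genes, which share libraries and are not replicates. At 2-fold, 327 genes were higher (1.60%) and 387 were lower (1.90%) in both states, 714 together (3.50%), and 247 went in opposite directions (1.21%). At the edge of the 1.5-fold rule, slc13a5a was just inside with log2 differences of 1.01 uninjured and 0.59 at 3 dpa, and zgc:110789 just outside with 1.68 and 0.59.

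**Figure D1:**
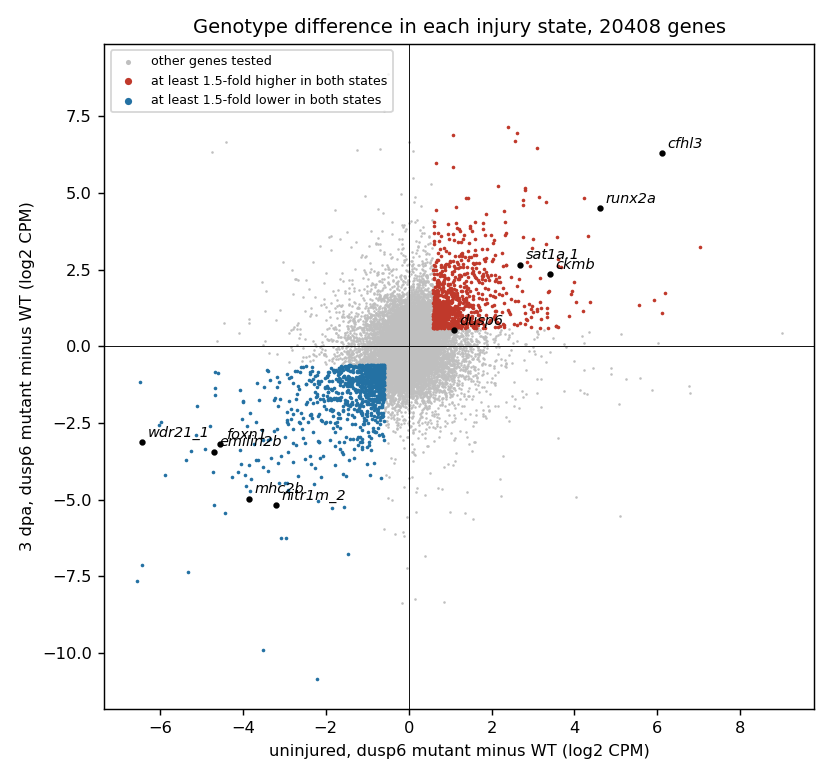
Each point is 1 of 20408 genes, with the log2 CPM difference of dusp6 mutant minus WT in uninjured hearts on the x axis and at 3 dpa on the y axis. The 903 red genes were at least 1.5-fold higher and the 932 blue genes at least 1.5-fold lower in both states, and the spread at 3 dpa was the wider one.

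The share of genes that differed in both states depended on their level. Among 3993 genes with a mean under 1 CPM, 18.8% differed at least 1.5-fold in the same direction and 10.9% in opposite directions. Of 7644 genes between 10 and 100 CPM, these shares were 3.58% and 1.28%. Above 100 CPM, 43 of 1192 genes (3.61%) differed in the same direction. The correlation of the genotype differences between states was 0.06 in this class. It was 0.24 under 1 CPM and 0.30 between 10 and 100 CPM. Differences in both states were thus found more often among weakly expressed genes.

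The largest differences in both states were found by the smaller of the 2 in-state log2 differences, among named genes with a mean of at least 1 CPM. This minimum, with at least a 2-fold difference, was met by 132 genes higher and 133 lower in dusp6 mutants. The 12 with the largest values in each direction follow, and none passed the threshold of the 4-library test. These values chose the genes, so the description below gives levels first.

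Among genes higher in dusp6 mutants, runx2a, a Runt family transcription factor of the bone lineage, had the lowest adjusted p of the 24. Its level was 0.84 CPM in WT and 21.4 CPM in dusp6 mutant uninjured hearts, and 1.22 CPM in WT and 28.3 CPM in dusp6 mutant hearts at 3 dpa. Both mutant libraries lay far above both WT libraries. The log2 fold change was 4.60 ± 0.26 (SE), with an edgeR adjusted p of 0.136 in the 4 libraries and 0.0068 with all 10. WT libraries of experiments 2 to 4 held 0.26 to 0.72 CPM. Introns held 99.4% of the reads of runx2a (chromosome 17, 5351922 to 5516693), and too few exon reads were left for a test.

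cfhl3, a gene of the complement factor H-like group on chromosome 22, was not detected in either WT library. It had 127 reads (2.26 CPM) in dusp6 mutant uninjured hearts and 149 reads (2.58 CPM) in dusp6 mutant hearts at 3 dpa, against 0 reads in both WT libraries. Taking 3 reads as the limit that a count of 0 allows (0.0496 CPM uninjured and 0.0451 CPM at 3 dpa), the level was at least 45.6-fold higher uninjured and at least 57.2-fold higher at 3 dpa. This limit covers counting error only. The edgeR adjusted p was 0.325 in the 4 libraries and 0.038 with all 10.

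sat1a.1, an enzyme of polyamine breakdown, differed by nearly the same factor in both states. It was at 26.5 and 171 CPM in WT and dusp6 mutant uninjured hearts, and at 17.96 and 114 CPM in WT and dusp6 mutant hearts at 3 dpa. The mutant level was 6.47-fold higher uninjured and 6.34-fold higher at 3 dpa, with a log2 fold change of 2.68 ± 0.23 (SE) and an edgeR adjusted p of 0.31, or 0.0052 with all 10 libraries. The other WT libraries at 3 dpa held 33.9 to 56.8 CPM. On exon reads alone the log2 fold change was 2.51.

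ckmb, a muscle creatine kinase that buffers ATP, was at 22.7 CPM in WT and 241 CPM in dusp6 mutant uninjured hearts, and at 8.24 and 42.2 CPM at 3 dpa. The mutant level was 10.6-fold and 5.12-fold higher, with an edgeR adjusted p of 0.325. The other WT libraries at 3 dpa were at 26.0 to 35.6 CPM, above the WT library of experiment 1. atp1a1a.3, an alpha subunit of the sodium pump, was at 2.1 and 12.6 CPM uninjured and at 0.060 and 9.57 CPM at 3 dpa, WT first. Here too the other WT libraries, at 1.68 to 4.81 CPM, lay between the genotypes of experiment 1.

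rims2b, a presynaptic scaffold of vesicle release, was at 0.68 and 8.40 CPM uninjured and at 0.72 and 8.96 CPM at 3 dpa, WT first, which is 12.4-fold higher in both states. Its edgeR adjusted p was 0.31 in the 4 libraries and 0.0036 with all 10. spata22, which serves meiotic recombination in mouse, was 8.66-fold higher uninjured and 12.3-fold higher at 3 dpa. mylkb, a myosin light chain kinase, was at 0.38 and 2.94 CPM uninjured and at 0.24 and 1.82 CPM at 3 dpa. Of its reads 84.5% were in introns, and on exon reads its log2 fold change was 0.14 in place of 2.93. The bloodthirsty-related gene btr20 was 6.97-fold and 12.6-fold higher, but only 22.4% of its reads mapped uniquely, so the value may hold reads of related genes.

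myo5c and tppp showed how much the WT libraries themselves differed. myo5c, an actin-based motor, was at 0.30 and 3.26 CPM uninjured and at 0.41 and 4.44 CPM at 3 dpa, WT first. The 3 other WT libraries held 6.28 to 6.84 CPM, above every library of experiment 1. tppp, a tubulin-binding protein, was at 0.61 and 4.45 CPM uninjured and at 0.33 and 12.97 CPM at 3 dpa, against 19.7 to 41.5 CPM in the other WT libraries. For both genes, the WT libraries of experiment 1 were the low ones. cyp2x6, a cytochrome P450 gene, was at 0.55 and 4.90 CPM uninjured and at 0.060 and 8.32 CPM at 3 dpa. The WT value at 3 dpa rested on 4 reads, and the 3 other WT libraries had no reads. cyp2x6 lies on chromosome 25 (17358287 to 17368231), within 5 Mb of dusp6.

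Among genes lower in dusp6 mutants, emilin2b, an extracellular matrix glycoprotein, was the most abundant. It was at 110 CPM in WT and 4.22 CPM in dusp6 mutant uninjured hearts, and at 36.9 CPM in WT and 3.38 CPM in dusp6 mutant hearts at 3 dpa. WT levels were 26.1-fold and 10.9-fold those of mutants, and the 3 other WT libraries, at 17.1 to 26.6 CPM, were also above both mutants. The log2 fold change was -4.08 ± 0.39 (SE), with an edgeR adjusted p of 0.31, or 0.0143 with all 10 libraries. Introns of emilin2b held 83.0% of its reads, and on exon reads the log2 fold change was -3.71.

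f13a1a.1, an A subunit gene of coagulation factor XIII, was at 26.4 and 0.37 CPM uninjured and at 12.9 and 2.17 CPM at 3 dpa, WT first. The other WT libraries held 28.2 to 67.5 CPM, well above the dusp6 mutants. scn1ba, a beta subunit of voltage-gated sodium channels, was at 5.32 and 0.78 CPM uninjured and at 7.54 and 0.78 CPM at 3 dpa. Its edgeR adjusted p was 0.329 in the 4 libraries and 0.0202 with all 10, where the other WT libraries were at 2.09 to 4.28 CPM. ccdc125, a coiled-coil gene, was at 12.1 and 1.41 CPM uninjured and at 19.9 and 1.63 CPM at 3 dpa.

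mhc2b, named for MHC class II, which presents antigen to T cells, was at 16.5 CPM in WT and 1.1 CPM in dusp6 mutant uninjured hearts, and at 14.0 and 0.42 CPM at 3 dpa. The 3 other WT libraries, however, were at 0.17 to 0.39 CPM, as low as the mutants. nitr1m_2, an immune-type receptor gene, was at 11.1 and 1.17 CPM uninjured and at 3.64 and 0.069 CPM at 3 dpa, and the other WT libraries, at 16.1 to 17.7 CPM, were higher still. SLA (1 of many) was at 2.45 and 0.36 CPM uninjured and at 5.39 and 0.26 CPM at 3 dpa, with 6.11 to 8.46 CPM in the other WT libraries. btr25, a bloodthirsty-related gene, was at 2.98 and 0.32 CPM uninjured and at 2.47 CPM in WT and 0 reads in dusp6 mutant hearts at 3 dpa, at least 47.4-fold lower against the limit of 3 reads. Of its reads 35.6% mapped uniquely.

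foxn1, a transcription factor of the thymic epithelium, was at 5.31 and 0.20 CPM uninjured and at 1.38 and 0.12 CPM at 3 dpa, WT first, with no reads in the 3 other WT libraries and 97.0% of its reads in introns. wdr21_1 was at 12.1 and 0.11 CPM uninjured and at 6.11 and 0.68 CPM at 3 dpa, and also had no reads in the other WT libraries. rnd2, a small GTPase, was at 1.06 and 0.12 CPM uninjured and at 4.21 and 0.28 CPM at 3 dpa, against 0.052 to 0.45 CPM in the other WT libraries. fgf22, an FGF ligand gene, was at 1.65 and 0.16 CPM uninjured and at 5.28 and 0.21 CPM at 3 dpa, and at 2.298 to 3.37 CPM in the other WT libraries, with 100% of its reads in introns, so that none of this signal came from exons of the ligand. For foxn1, wdr21_1 and rnd2, the WT libraries of experiment 1 were the only high ones among the WT libraries.

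**Figure D2:**
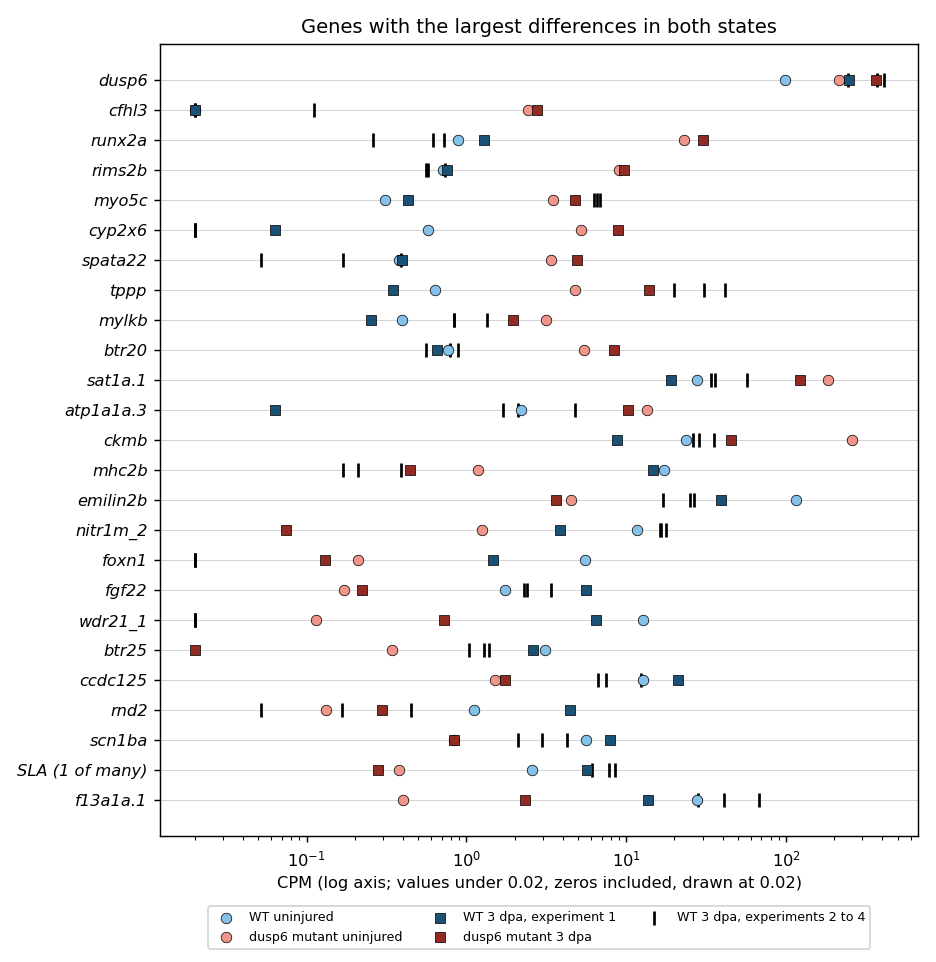
Levels of dusp6 and of the 24 genes with the largest differences in both states, in CPM on a log axis and on the scale of all 10 libraries, with 1 marker per library. Red markers (dusp6 mutants) and blue markers (WT of experiment 1) separate for each of the 24 genes, while the black ticks (3 other WT libraries at 3 dpa) lie on the mutant side for mhc2b and myo5c and on the WT side for runx2a and nitr1m_2.

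Of the 24 genes, 15 passed the threshold in the fit over all 10 libraries, 9 of them higher and 6 lower in dusp6 mutants. Over all genes of that fit, 0.271% were called higher and 0.469% lower. The 24 genes were chosen by the same 4 libraries that set the genotype difference in that fit, so these passes are no independent support. Of all 70 named genes, list members included, 17 passed in it. Genes given here with an adjusted p of the 4 libraries alone did not pass with all 10. Over 80% of reads lay in introns for 5 of the 24. The reads of such genes may not report the mature transcript, which was not tested.

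Whether the other WT hearts resembled the WT library of experiment 1 was examined for all genes that differed in both states. These genes were chosen partly by the levels of the WT and dusp6 mutant libraries of experiment 1 at 3 dpa. The place of either beyond the other libraries is thus in part set by the choice, and the counts are a description. Of the 903 genes higher in both, the dusp6 mutant library at 3 dpa was above all 3 other WT libraries for 736 (81.5%), and the median of the other WT libraries was nearer to WT than to dusp6 mutant for 649 (71.9%). Of the 932 genes lower in both, the mutant was below all 3 for 578 (62.0%), and the median was nearer to WT for 497 (53.3%). The WT library of experiment 1 was itself below all 3 other WT libraries for 340 of the 903 higher genes. It was above all 3 for 536 of the 932 lower genes. Within their range it lay for 260 and 224 genes. For genes that differed only at 3 dpa, the median was nearer to WT for 61.8% of 2834 higher and 55.5% of 2675 lower genes, and the mutant was beyond all 3 other WT libraries for 77.2% and 70.7%. Experiment and library depth differ between these libraries and cannot be told apart from the hearts.

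A stricter pattern was presence in one genotype and near absence in the other. With at most 3 reads in both libraries of one genotype and at least 30 in both of the other, 15 genes were nearly absent from dusp6 mutants and 2 from WT. The 15 included 6 with assigned names. cmc4, kbtbd7, sparta, nog3, crp1 and nitr10a were at 0.58 to 1.92 CPM in WT uninjured hearts and at 0.63 to 1.38 CPM in WT hearts at 3 dpa. All 15 genes had mutant levels of at most 0.0534 CPM. The other WT libraries each had over 3 reads for 10 of the 15 and at most 3 reads for the remaining 5. nog3, a Noggin family gene (Noggin binds and blocks BMP ligands), had 42 reads in WT and 2 in dusp6 mutant uninjured hearts, and 92 and 3 at 3 dpa. In the fit over all 10 libraries its edgeR adjusted p was 0.0198. cmc4 had 116 and 0 reads uninjured and 80 and 2 reads at 3 dpa, WT first, with 2.66 to 4.45 CPM in the other WT libraries. The 2 genes nearly absent from WT were cfhl3 and adipoqb, an adiponectin gene, which had 1 and 3 reads in WT and 32 and 31 in dusp6 mutant libraries. The 15 and 2 genes were chosen by this pattern after their values were seen.

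ERK feedback and target genes differed by genotype in both states at a share near that of all genes. Of 33 ERK feedback and target genes tested, 1 was at least 1.5-fold higher in both states and 1 lower, which is 6.06% against 8.99% of all genes. Their median log2 difference was 0.21 uninjured and 0.06 at 3 dpa, beside -0.01 and 0.01 for all genes. In uninjured hearts, 23 of the 33 were above 0, and 9 were at least 1.5-fold higher and 2 lower, while at 3 dpa 6 were higher and 6 lower. At an unadjusted p under 0.05, 3 were higher and 1 was lower across states. etv4, an ETS transcription factor induced by FGF-ERK signaling, was at 9.70 CPM in WT and 15.9 CPM in dusp6 mutant uninjured hearts, and at 10.1 and 15.9 CPM at 3 dpa, with a log2 fold change of 0.68 ± 0.22 (SE) and an edgeR adjusted p of 0.606. The other WT libraries at 3 dpa held 13.7 to 17.1 CPM, and the dusp6 mutant library, at 17.1 CPM on the scale of all 10 libraries, was level with the highest of them. phlda1, a pleckstrin homology-like gene, was at 2.88 and 1.09 CPM uninjured and at 1.49 and 0.71 CPM at 3 dpa. errfi1a, a feedback inhibitor of EGF receptors, was at 62.8 and 86.2 CPM uninjured and at 41.9 and 80.1 CPM at 3 dpa, with 69.1 to 133 CPM in the other WT libraries.

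Of 41 Ras-ERK cascade genes, rps6ka3b alone differed at least 1.5-fold in the same direction in both states (2.44%, against 8.99% of all genes). This gene of an RSK kinase, which ERK activates, was at 12.2 CPM in WT and 33.6 CPM in dusp6 mutant uninjured hearts, and at 10.6 and 19.97 CPM at 3 dpa, with a log2 fold change of 1.19 ± 0.24 (SE) and an edgeR adjusted p of 0.473. Levels of 12.1 to 22.8 CPM were found in the other WT libraries. ptpn11b, encoding the phosphatase Shp2 that relays receptor signals to Ras, was at 17.7 and 12.1 CPM uninjured and at 22.1 and 12.4 CPM at 3 dpa. Its level in the other WT libraries was 35.4 to 43.1 CPM. map2k2a, a MEK kinase that activates ERK, was at 20.2 and 16.5 CPM uninjured and at 36.5 and 21.4 CPM at 3 dpa. The list median was -0.04 uninjured and -0.07 at 3 dpa.

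The other dual-specificity phosphatases showed no difference that met the 1.5-fold limit in both states. Of 18 tested, 0 differed at least 1.5-fold in the same direction, against 8.99% of all genes. At an unadjusted p under 0.05 there were 0, against 3.92% higher and 3.97% lower over all genes. With 18 genes, counts of 0 cannot tell this list from all genes. dusp10, which acts on p38 and JNK, was at 6.38 and 7.89 CPM uninjured and at 1.97 and 5.10 CPM at 3 dpa. dusp8a was at 19.5 and 9.10 CPM uninjured and at 14.999 and 13.4 CPM at 3 dpa, against 17.0 to 62.3 CPM in the other WT libraries. dusp3a was at 2.02 and 2.72 CPM uninjured and at 0.69 and 1.87 CPM at 3 dpa.

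Growth factor ligands and receptors held 2 members higher and 6 lower in both states of 50 tested (16.0%, against 8.99% of all genes). Most of these members had a mean under 1 CPM, where the share over all genes was 18.8%. erbb3b, a neuregulin receptor gene, was on the higher side, at 0.17 and 1.53 CPM uninjured and at 0.17 and 1.79 CPM at 3 dpa, WT first, with a log2 fold change of 3.31 ± 0.51 (SE) and an edgeR adjusted p of 0.357. fgfr3, an FGF receptor, was at 2.03 CPM in WT and 1.09 CPM in dusp6 mutant uninjured hearts, and at 6.95 and 3.38 CPM at 3 dpa. erbb4b, another neuregulin receptor gene, was lower in both states, at 3.46 and 2.14 CPM uninjured and at 3.24 and 2.12 CPM at 3 dpa. fgf10b was the other member on the higher side, at 0.61 and 1.21 CPM uninjured and at 0.15 and 1.16 CPM at 3 dpa. These examples were named after their values were seen.

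Heart muscle genes were higher in dusp6 mutants on balance at 3 dpa but not before injury. The 50 sarcomere genes had a median log2 difference of 0.00 uninjured and 0.67 at 3 dpa, with 25 and 38 of 50 above 0. Uninjured, 7 were at least 1.5-fold higher and 7 lower, and at 3 dpa 29 were higher and 7 lower. Over all genes, 11.5% were higher and 10.9% lower uninjured, and 20.3% and 20.2% at 3 dpa. Their summed level was 133570 and 138730 CPM uninjured and 40645 CPM in WT against 86517 CPM in dusp6 mutant hearts at 3 dpa, on the scale of all 10 libraries. The 3 other WT libraries at 3 dpa, at 70703 to 72985 CPM, lay between. Calcium handling and excitability genes had medians of 0.01 and 0.75. In both states, 3 sarcomere genes were higher (myh7, tnnc1a and lmod2a) and 4 lower (smyd1b, myoz2a, desmb and myh6). This was 14.0% of the list, against 8.99% of all genes. myh7, a slow cardiac myosin heavy chain in mammals, was at 395 and 788 CPM uninjured and at 117 and 788 CPM at 3 dpa. Its log2 fold change was 1.87 ± 0.54 (SE), with an edgeR adjusted p of 0.577. smyd1b, a methyltransferase of myosin assembly, went the other way, at 99.1 and 30.9 CPM uninjured and at 33.2 and 18.8 CPM at 3 dpa. lmod2a, a thin filament nucleator, was at 112 and 179 CPM uninjured and at 28.6 and 112 CPM at 3 dpa. Of 20 cardiac stress genes, 2 were lower in both states and 0 higher (10%, against 8.99% of all genes). Their medians were -0.29 uninjured and 0.11 at 3 dpa, where 8 were at least 1.5-fold higher and 4 lower. nppb, a natriuretic peptide gene of the stressed heart and 1 of the 2 lower ones, was at 49.1 and 31.9 CPM uninjured and at 270 and 121 CPM at 3 dpa.

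Wound tissue genes showed the reverse at 3 dpa. Of 45 fibroblast and extracellular matrix genes, 28 were above 0 uninjured (median 0.15), and 4 were above 0 at 3 dpa (median -1.09). Their summed level was 2058 and 2381 CPM uninjured, and 26854 CPM in WT against 11156 CPM in dusp6 mutant hearts at 3 dpa, with 18173 to 20080 CPM in the other WT libraries. The fibroblast markers named above moved with this list, and their part in it was not tested. Only 3 members of this list, bgnb, vcanb and fbln5, differed at least 1.5-fold in the same direction in both states, all lower in mutants. This was 6.67% of the list, against 8.99% of all genes. bgnb, a biglycan proteoglycan gene, was at 7.80 and 2.69 CPM uninjured and at 6.88 and 2.93 CPM at 3 dpa, with 11.2 to 13.9 CPM in the other WT libraries. Its log2 fold change was -1.38 ± 0.30 (SE), with an edgeR adjusted p of 0.506 in the 4 libraries and 0.0163 with all 10. vcanb, a versican gene, was at 13.4 and 7.51 CPM uninjured and at 34.4 and 10.5 CPM at 3 dpa. fbln5, an elastic fibre protein, was at 7.44 and 4.59 CPM uninjured and at 14.2 and 6.78 CPM at 3 dpa.

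Of 20 epicardial genes, 2 were lower in both states and 0 higher (10%, against 8.99% of all genes). The list was split, with 11 of 20 above 0 uninjured (median 0.02) and 9 at 3 dpa (median -0.31). Of the epicardial markers, tbx18 was at 11.9 and 23.2 CPM uninjured and at 58.2 and 67.9 CPM at 3 dpa, WT first. tcf21 was at 13.2 and 13.6 CPM and at 63.9 and 54.4 CPM, and wt1b at 1.32 and 1.58 CPM and at 59.8 and 15.6 CPM. cfd, the complement factor D gene, was at 179 and 68.4 CPM uninjured and at 161 and 92.6 CPM at 3 dpa, with 159 to 175 CPM in the other WT libraries. Its edgeR adjusted p was 0.546 in the 4 libraries and 0.031 with all 10. clu, encoding the extracellular chaperone clusterin, was at 30.98 and 18.4 CPM uninjured and at 216 and 34.1 CPM at 3 dpa. aldh1a2, which makes retinoic acid in activated epicardium, was at 50.0 and 37.6 CPM uninjured and at 493 and 200 CPM at 3 dpa, against 321 to 395 CPM in the other WT libraries. Of 23 smooth muscle and bulbus arteriosus genes, 2 were higher in both states (mylkb and rgs5b) and 2 lower (elnb and fbln5). This was 17.4%, against 8.99% of all genes. The markers of this tissue (myh11a, acta2, tagln and elnb) summed to 143.9 and 135.4 CPM uninjured and to 142.5 and 190.7 CPM at 3 dpa, WT first. elnb, the elastin gene that marks the bulbus arteriosus, was at 21.1 and 10.9 CPM uninjured and at 18.4 and 5.58 CPM at 3 dpa. Its levels of 139 to 187 CPM in the other WT libraries were far above all 4 libraries of experiment 1.

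Endothelial genes had medians of 0.02 uninjured and 0.31 at 3 dpa over 54 genes, of which 2 were at least 1.5-fold higher in both states and 1 was lower. The share that differed in the same direction in both states was 5.56%, against 8.99% of all genes. At 3 dpa, 38 of the 54 were above 0, with 16 at least 1.5-fold higher and 7 lower. Over all genes, 20.3% were higher and 20.2% lower by this limit at 3 dpa. The markers kdrl, cdh5 and pecam1 summed to 282 CPM in WT and 486 CPM in dusp6 mutant hearts at 3 dpa. pecam1, an adhesion molecule of endothelial junctions, was at 29.3 and 43.4 CPM uninjured and at 20.1 and 45.7 CPM at 3 dpa, with 28.7 to 38.2 CPM in the other WT libraries. vegfba, a vascular growth factor gene, was at 2.56 and 5.0 CPM uninjured and at 1.22 and 3.31 CPM at 3 dpa, with an edgeR adjusted p of 0.586. Introns held 71.3% of the reads of vegfba, so its value may not report the mature transcript. lyve1a, a lymphatic marker, was at 1.19 and 3.36 CPM uninjured and at 0.89 and 2.31 CPM at 3 dpa.

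Among immune and blood lists, 2 of 44 macrophage genes were higher in both states and 0 lower (4.55%, against 8.99% of all genes). slc40a1, the iron exporter ferroportin, was at 63.8 and 123 CPM uninjured and at 49.8 and 113 CPM at 3 dpa, with 94.2 to 117 CPM in the other WT libraries. The macrophage list as a whole went lower at 3 dpa, with medians of 0.14 uninjured and -0.38 at 3 dpa. Of the 44 genes, 31 were above 0 uninjured and 13 at 3 dpa. At 3 dpa, 5 were at least 1.5-fold higher and 17 lower. Of 25 neutrophil genes, 2 (npsn and cpa5) were higher in both states (8.0%), while the list median was -0.69 at 3 dpa. cpa5 lies within 5 Mb of dusp6 on chromosome 25. npsn, a neutrophil granule protease, was at 1.16 and 2.14 CPM uninjured and at 7.42 and 18.9 CPM at 3 dpa. cybb, of the NADPH oxidase, was at 8.12 and 5.98 CPM uninjured and at 26.2 and 10.2 CPM at 3 dpa. Of 30 lymphocyte genes, 5 were lower in both states and 0 higher (16.7%), most of them with a mean under 1 CPM, where the share over all genes was 18.8%. Of these il2rb was at 3.90 and 1.19 CPM uninjured and at 1.64 and 1.01 CPM at 3 dpa. The thrombocyte integrin gene itga2b was at 15.6 and 11.02 CPM uninjured and at 22.6 and 4.59 CPM at 3 dpa. Of 24 erythrocyte genes, 20 had a log2 fold change below 0, with medians of -0.31 uninjured and -0.33 at 3 dpa. tfr1a, the transferrin receptor of red cell precursors, was at 149 and 87.7 CPM uninjured and at 225 and 95.6 CPM at 3 dpa, with an edgeR adjusted p of 0.549, and the other WT libraries were at 330 to 363 CPM.

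Of the markers of tissues outside the ventricle, myh6 is given above, krt4, an epithelial keratin, was at 88.4 to 1065 CPM, and tfa, transferrin, at 19.7 to 246 CPM. The hepatocyte genes fabp10a and apoa2 were under 1 CPM in all 4 libraries, and the liver list held 4 members higher and 2 lower in both states of 27 tested. apoa1a, an apolipoprotein gene, was at 1.09 and 53.2 CPM uninjured but at 0.62 and 1.61 CPM at 3 dpa. The yolk protein gene vtg4 was at 1.90 and 6.53 CPM uninjured and at 0.75 and 2.27 CPM at 3 dpa. syt1a, the synaptic calcium sensor, was at 33.5 and 68.7 CPM uninjured and at 12.4 and 34.02 CPM at 3 dpa, while the other WT libraries held 11.3 to 23.3 CPM. Its edgeR adjusted p was 0.42.

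Genes of mitosis lay on opposite sides in the 2 states, a difference that could not be tested with 1 library per genotype and state. Of 73 G2/M and mitosis genes, 60 were higher in dusp6 mutants uninjured, with a median log2 difference of 0.47, and 0 were higher at 3 dpa, with a median of -0.66. Their summed level was 163 and 216 CPM uninjured and 1621 and 1085 CPM at 3 dpa, WT first, and the other WT libraries held 893 to 1254 CPM. The mutant library at 3 dpa thus lay within the range of the other WT libraries, and the WT library of experiment 1 above it. Members that differed at least 1.5-fold in opposite directions numbered 19, against 1 (cdc25d) in the same direction. The 67 S phase and DNA replication genes had medians of -0.01 uninjured and -0.91 at 3 dpa, with summed levels of 452 and 449 CPM uninjured and 1210 and 722 CPM at 3 dpa. Between 881 and 1045 CPM of these were found in the other WT libraries. Of this list, 5 genes were lower in both states and 0 were higher, which at 7.46% is below the 8.99% of all genes. gins2, a subunit of the replicative helicase complex, was at 3.98 and 0.69 CPM uninjured and at 4.54 and 1.94 CPM at 3 dpa, with an edgeR adjusted p of 0.546.

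**Figure D3:**
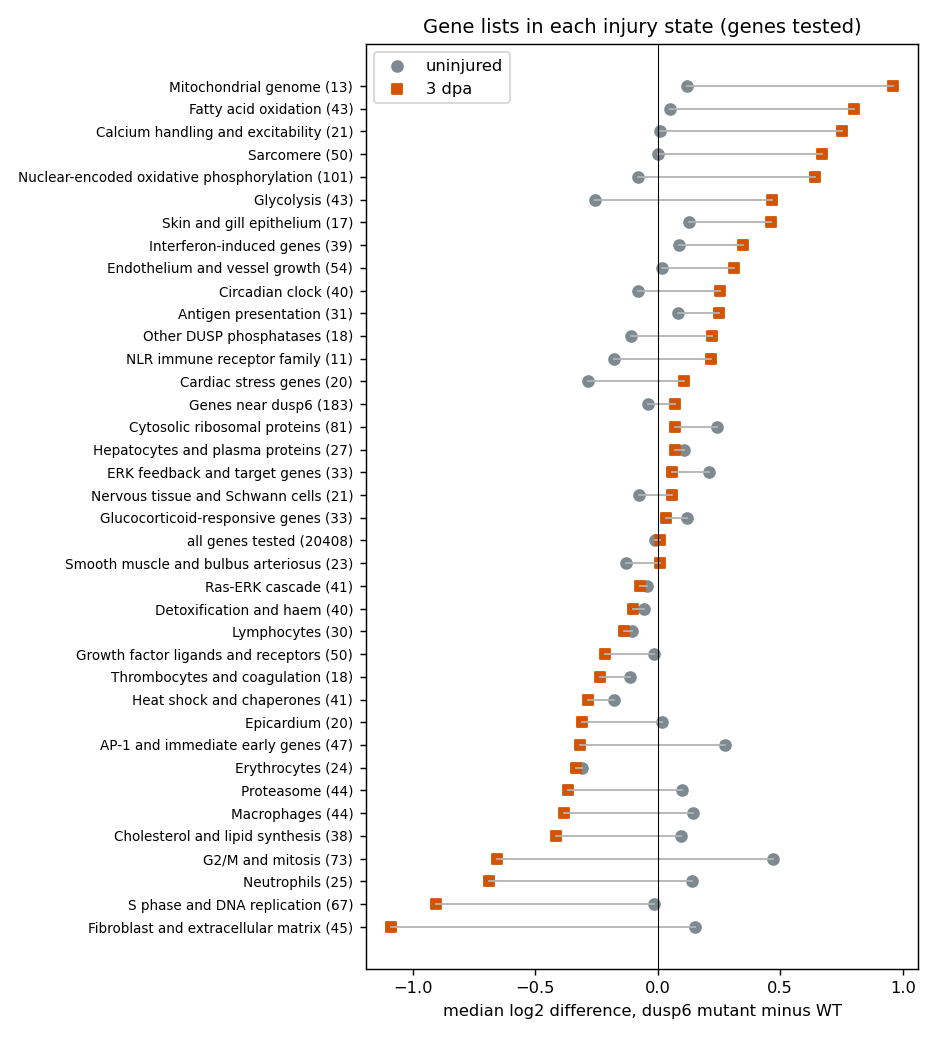
Median log2 difference of dusp6 mutant minus WT over each gene list, uninjured (grey circles) and at 3 dpa (orange squares), with the number of genes tested in brackets. Grey circles stay within 0.5 of 0, while at 3 dpa the medians run from -1.09 for fibroblast and extracellular matrix to 0.96 for the mitochondrial genome.

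Metabolic genes followed the muscle genes at 3 dpa. Fatty acid oxidation genes had medians of 0.05 uninjured and 0.80 at 3 dpa, and nuclear-encoded oxidative phosphorylation genes -0.08 and 0.64, with 96 of 101 above 0 at 3 dpa. For the 13 mitochondrial genome genes the medians were 0.12 and 0.96. The other WT libraries lay between the genotypes of experiment 1 in the summed level of these lists at 3 dpa. Fatty acid oxidation genes were at 4286.1 CPM in WT, 9620.5 CPM in dusp6 mutant and 6455.5 to 7410.7 CPM in the other WT libraries. For oxidative phosphorylation these values were 14527, 25108 and 20565 to 21771 CPM, and for the mitochondrial genome 68773, 129640 and 80941 to 83665 CPM. In both states, ucp3, a mitochondrial carrier, was at 22.3 and 40.2 CPM uninjured and at 16.2 and 32.5 CPM at 3 dpa, and pdk2a, a kinase that restrains pyruvate dehydrogenase, was at 566 and 911 CPM uninjured and at 345 and 898 CPM at 3 dpa. Of 43 glycolysis genes, 3 were higher in both states and 1 was lower (9.30%, against 8.99% of all genes). The lower one was hk2, a hexokinase, at 2.48 and 1.33 CPM uninjured and at 23.3 and 4.53 CPM at 3 dpa. Cytosolic ribosomal protein genes were slightly above 0 in both states, with 78 of 81 positive uninjured (median 0.24) and 68 of 81 at 3 dpa (median 0.07). The cardiomyocyte markers moved with the muscle and metabolic lists at 3 dpa, and their part in these was not tested.

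The heat shock, glucocorticoid-responsive and antigen presentation lists had larger shares of genes that differed in both states than all genes. Some other response lists lay below all genes, with 2.13% of AP-1 and immediate early genes and 7.5% of detoxification and haem genes. The liver list, at 22.2%, was above each of them. Of 41 heat shock and chaperone genes, 2 were higher and 6 lower (19.5%, against 8.99% of all genes). hspb6, a small heat shock protein of muscle, was at 52.0 and 252 CPM uninjured and at 8.64 and 32.7 CPM at 3 dpa. serpinh1b, the collagen chaperone, was at 10.3 and 4.56 CPM uninjured and at 138 and 48.7 CPM at 3 dpa, and hsp90aa1.2 at 25.5 and 12.9 CPM uninjured and at 24.3 and 12.9 CPM at 3 dpa. Of 33 glucocorticoid-responsive genes, 2 were higher and 4 lower (18.2%). glula, a glutamine synthetase, was at 17.9 and 40.6 CPM uninjured and at 26.1 and 57.8 CPM at 3 dpa, with an edgeR adjusted p of 0.416. Of 31 antigen presentation genes, 2 were higher and 3 lower (16.1%). mhc1uba, an MHC class I gene, was at 96.8 and 238 CPM uninjured and at 15.3 and 173 CPM at 3 dpa. These genes were named after their values were seen, and none passed the threshold.

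Genes around dusp6 on chromosome 25 held a larger share of differences in both states than genes of other chromosomes. Of 183 genes whose start lies within 5 Mb of that of dusp6, 18 were at least 1.5-fold higher and 13 lower in both states (16.9%). The stretches from 5 to 10 Mb on either side had 12 of 55 genes each (21.8%), more than the window itself. The whole of chromosome 25 outside the window had 53 of 443 (11.96%), and the other chromosomes 1751 of 19781 (8.85%). Chromosome 25 as a whole had the largest share, 84 of 627 genes (13.4%), followed by chromosome 7 with 11.6% and chromosome 15 with 10.99%. Within 5 Mb, 13 of 90 genes before dusp6 were higher and 4 lower, and 5 of 93 after it were higher and 9 lower. abcc8, the sulfonylurea receptor of potassium channels, lies in this window and was at 11.4 and 27.5 CPM uninjured and at 5.69 and 28.1 CPM at 3 dpa. atp2b1b, a plasma membrane calcium pump, was at 2.23 and 0.80 CPM uninjured and at 1.67 and 0.68 CPM at 3 dpa. far1, which makes fatty alcohols, was at 39.6 and 24.99 CPM uninjured and at 45.0 and 18.3 CPM at 3 dpa. cyp2x6, given above, also lies in this window, as does cpa5 of the neutrophil list.

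**Figure D4:**
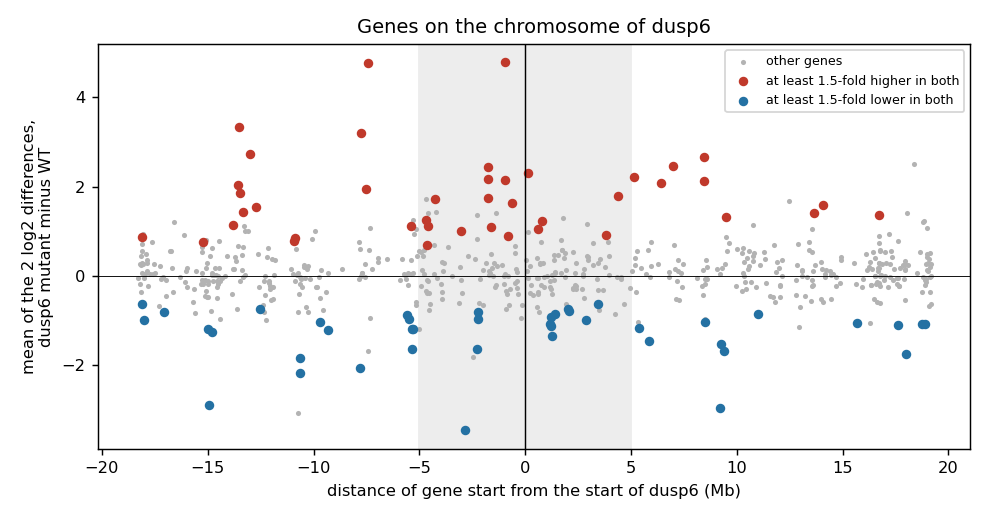
Genes on chromosome 25 by the distance of their start from that of dusp6 (Mb, x axis) and the mean of their log2 differences uninjured and at 3 dpa (y axis), with the window of 5 Mb shaded. In the window 18 genes (red) were higher and 13 (blue) lower in both states, of 183 tested.

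Genes that differed in both states also lay near each other on other chromosomes. With chromosome 25 left out, 1102 of 9133 non-overlapping neighbours within 100 kb of such genes differed in both states (12.1%). For neighbours of the other genes the count was 8031 of 98631 (8.14%). Neighbours were counted from each gene in turn, so a pair of such genes entered from both sides. The 8031 are the remaining pairs of the 9133 seen from the other side, so these shares are not independent. Several gene families with many copies held larger shares than the 8.99% of all genes. These groups were formed from symbols after the values were seen. Of 16 bloodthirsty-related genes, 5 were higher and 4 lower in both states. Of 8 immune-type receptor (nitr) genes, 0 were higher and 4 lower, and of 64 finTRIM genes 6 were higher and 10 lower. Of 9 genes of the NLR family of cytosolic receptors, 1 was higher (nlrp15) and 2 were lower (nlrc8 and nlrc9). nlrp15 was at 0.20 and 0.53 CPM uninjured and at 0.48 and 0.88 CPM at 3 dpa, WT first. nlrc8 and nlrc9 both lie on chromosome 15, at 41422248 to 41438821 and 41448242 to 41523292. nlrc8 was at 6.18 and 0.96 CPM uninjured and at 6.12 and 1.07 CPM at 3 dpa. Its edgeR adjusted p was 0.329 in the 4 libraries and 0.0055 with all 10. Outside immunity, cytochrome P450 genes reached 20.97% (13 of 62), solute carriers 12.9% (45 of 350) and olfactory and related receptors 12.5% (2 of 16). Of the P450 genes that differed, cyp2x6 and cyp2x9 lie within 5 Mb of dusp6. Clone-based and unnamed loci reached 12.9% (565 of 4393), and genes with assigned names 7.93% (1270 of 16015). Other families lay below all genes, among them zinc finger genes at 4.69% (15 of 320) and kinesins at 4.65% (2 of 43). Shares were also smaller in families of abundant genes, at 3 of 89 for ribosomal proteins and 1 of 44 for proteasome subunits.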

How the data were processed

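Per the sources used here, the authors mapped reads to GRCz11 with CLC Genomics Workbench and counted them per gene. The deposited tables of each library hold counts (all gene reads, uniquely mapped, exon and intron reads) and TPM, for which the authors scaled reads per kilobase to 1000000 in each library. The authors' tables of comparisons, with fold changes and p-values, were not used. Counts of all gene reads were analysed with edgeR (version 4.0.16, R 4.3.3): low genes were removed with filterByExpr (minimum 10 reads at median depth, 15 over all libraries), libraries were scaled by TMM, and genotype was tested beside injury state by the quasi-likelihood F test with Benjamini-Hochberg adjustment. In-state differences are log2 CPM with a prior count of 2. With 1 library per genotype and state, an interaction of genotype and injury could not be tested. Named genes are dusp6, the 12 higher and 12 lower with the largest smaller in-state difference (clone-based loci skipped, at least 2-fold and a mean of at least 1 CPM where not called), and the 3 lowest p values of the ERK and cell type lists. Members and lists were chosen with earlier results of these data known. Alternatives were DESeq2 (version 1.42.0), the likelihood ratio test, RLE size factors, other filters, read classes and thresholds, limma-trend (version 3.58.1) on log2(TPM + 1) and log2(TPM + 0.1), injury state left out, all 10 libraries, and each library left out. The tests were tried on simulated data with known changes. No sequences are printed.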

Additional observations from a re-analysis of the deposited data

Results flagged for a closer look

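In WT hearts at 3 dpa, 4 libraries could be checked for a single library far from the others, and 63 of the named genes reached 1 CPM there. For 8 of them, 1 library stood apart by more than Dixon's critical value for 4 samples, where chance gives about 1 in 20 groups. These genes were named partly for a difference that uses the WT library of experiment 1, which favours an extreme value of that library, so the chance share is no measure for them. In all 8 it was the library of experiment 1, the one used in the genotype comparison, and it was the high one for 5. On the scale of all 10 libraries its level was 14.8 CPM for mhc2b, 1.46 CPM for foxn1, 6.44 CPM for wdr21_1, 4.44 CPM for rnd2 and 24.9 CPM for stmn1b, each above the other WT libraries. Its level was 0.43 CPM for myo5c, 3.84 CPM for nitr1m_2 and 23.8 CPM for itga2b, each below them. Experiment 1 was also the more deeply sequenced, and the experiment cannot be told apart from the library.

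G2/M, AP-1 and glycolysis lists had median differences of opposite sign in the 2 states, each at least 0.2 in size. For G2/M and mitosis genes the median log2 difference was 0.47 uninjured and -0.66 at 3 dpa, for AP-1 and immediate early genes 0.27 and -0.32, and for glycolysis genes -0.26 and 0.47. The difference between states was not tested, because each genotype and state had 1 library.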

How the results depend on the processing

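The counts of calls depended on the test and on the libraries in the fit. In place of 0 higher and 0 lower genes, DESeq2 called 150 and 143, edgeR's likelihood ratio test 172 and 208, the quasi-likelihood test with no filter on low counts 1 and 1, and with all 10 libraries 52 and 90. Leaving out each library of experiment 1 in turn from that last fit gave 32 to 579 genes higher and 35 to 540 lower (579 and 536 without WT uninjured, 579 and 540 without dusp6 mutant uninjured, 43 and 44 without WT 3 dpa, 32 and 35 without dusp6 mutant 3 dpa). Without an uninjured library, the genotype difference of that fit came from the 3 dpa pair alone. Without a 3 dpa library it came from the uninjured pair alone. These counts therefore do not describe both states. Why the tests differed was not tested. RLE size factors, a minimum of 1 CPM in 2 libraries, uniquely mapped reads, exon reads, haemoglobin and mitochondrial genes left out, limma-trend on TPM, the omission of injury state and other thresholds left both counts at 0. The genes at least 1.5-fold different in both states numbered 327 higher, 387 lower and 247 in opposite directions at 2-fold, and 579, 525 and 475 with at least 1 CPM in 2 libraries, by construction of the stricter limits. Of the 70 named genes, none reversed direction under any setting in which it was tested, and 30 passed the threshold with DESeq2 and 17 with all 10 libraries. Every setting reused reads of the same 4 libraries. With a library of experiment 1 left out, the value was the difference of the other state alone. The 24 genes were chosen for the same direction in both states, so there they could not reverse. On exon reads 4 of the named genes, runx2a, foxn1, fgf22 and ccr7, could not be tested. No paired analysis was possible because each genotype had 1 library per state, all from experiment 1, so no replicate number is shared within a group. Depth limits the genes with a mean under 1 CPM, which held 749 of the 1835 genes that differed in both states.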
